A study of Mus musculus with 6 samples.

Results

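The genes described here are the protein-coding genes of mouse chromosomes 1 to 19 whose promoters are poor in CpG dinucleotides. A promoter was called CpG-poor when the 1 kb of mm9 sequence centred on the annotated transcription start site (TSS) held fewer than 0.4 times the CpGs that its C and G content predicts (the observed over expected ratio). Of 21418 such genes, 8469 (39.5%) were CpG-poor. The 9947 genes with a ratio of 0.6 or more (CpG-rich) served as the contrast, and 3002 lay between. The rule used the genome sequence alone and no read.

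Hippocampal chromatin of C57/BL6 mice was sequenced in 6 libraries. Mice of the FC group went through contextual fear conditioning, with foot shocks given on 2 occasions, and mice of the CON group saw the context without any shock. The hippocampus was collected 1 h after a test of memory on day 3. For each group there was 1 library of chromatin precipitated with an antibody to histone H4 acetylated at lysine 5 (H4K5ac-ChIP), 1 mock precipitation with IgG (IgG-IP) and 1 library of input chromatin. All mice were 6 months old according to the labels, and no other allele or agent is named. A single library stands for each group and antibody, which leaves replicate error unmeasured, and differences are therefore given without a test. The libraries held between 14549689 (FC IgG-IP) and 45673239 (FC input) aligned reads, and a window of 4 kb at the mean density of the autosomes held 44.2 (FC) and 52.0 (CON) H4K5ac reads and 19.2 and 22.8 IgG-IP reads. Whole hippocampus holds many cell types, and fewer cells carrying the mark cannot be told apart from less of the mark per cell.

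In mammals most CpGs are methylated and are lost over time by deamination, except in CpG islands, which stay unmethylated and cover the promoters of housekeeping genes and of many developmental and neuronal genes. CpG-poor promoters are typical of genes used by a single tissue or cell type, such as those for hormones, digestive enzymes, milk proteins, skin proteins and odorant receptors. Acetylation of H4 lysine 5 neutralises a charge on the histone tail, is read by bromodomain proteins and is found at transcribed genes.

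The 200 bases upstream of the TSS are shown for 11 genes, in mm9 and read 5′ to 3′ towards the TSS, with every CpG in capitals, and likewise the TATA box word TATAAA where it lies between 40 and 16 bases before the TSS. The first pair stood among the promoters with the most H4K5ac over IgG-IP.
Phyhd1 (chr2:30121523-30121722, plus strand): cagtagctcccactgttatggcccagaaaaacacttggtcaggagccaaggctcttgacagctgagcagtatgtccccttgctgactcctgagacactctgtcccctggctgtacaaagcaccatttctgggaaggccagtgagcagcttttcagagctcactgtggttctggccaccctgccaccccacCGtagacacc
Mybph (chr1:136089825-136090024, plus strand): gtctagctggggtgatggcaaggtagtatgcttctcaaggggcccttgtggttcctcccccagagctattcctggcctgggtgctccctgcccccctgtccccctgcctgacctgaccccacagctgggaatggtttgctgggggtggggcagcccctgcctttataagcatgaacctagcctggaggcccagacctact
The next 4 promoters belong to brain genes from the marker lists and had more H4K5ac than IgG-IP reads in both groups: Dlg4 (the postsynaptic scaffold PSD-95), the astrocyte genes S100b and Gfap, and the oligodendrocyte gene Opalin.
Dlg4 (chr11:69830387-69830586, plus strand): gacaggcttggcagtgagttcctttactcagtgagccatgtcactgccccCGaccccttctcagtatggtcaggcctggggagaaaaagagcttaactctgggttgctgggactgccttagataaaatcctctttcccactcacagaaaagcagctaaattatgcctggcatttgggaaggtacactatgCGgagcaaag
S100b (chr10:75716398-75716597, plus strand): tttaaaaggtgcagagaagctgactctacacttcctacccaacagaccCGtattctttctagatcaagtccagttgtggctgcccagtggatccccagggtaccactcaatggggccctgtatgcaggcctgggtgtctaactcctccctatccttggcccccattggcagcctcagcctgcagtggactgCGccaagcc
Gfap (chr11:102762227-102762426, minus strand): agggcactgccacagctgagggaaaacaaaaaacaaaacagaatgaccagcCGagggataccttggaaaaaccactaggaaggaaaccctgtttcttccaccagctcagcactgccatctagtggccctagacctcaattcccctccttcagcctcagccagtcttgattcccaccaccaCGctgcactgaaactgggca
Opalin (chr19:41151604-41151803, minus strand): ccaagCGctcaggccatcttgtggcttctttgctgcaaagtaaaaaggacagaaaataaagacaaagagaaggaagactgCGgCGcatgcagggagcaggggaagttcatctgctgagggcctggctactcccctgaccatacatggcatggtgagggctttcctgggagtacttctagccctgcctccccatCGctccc
A further 3 promoters had less H4K5ac than IgG-IP: the milk casein Csn2, the insulin gene Ins1 and the odorant receptor Olfr711. These are chosen examples, and other list members went the other way. The brain-list genes Neurod6, Vip and Ptprc had less H4K5ac than IgG-IP, and Apoa1, Lpo and Casq1 of other organs had more.
Csn2 (chr5:88128447-88128646, minus strand): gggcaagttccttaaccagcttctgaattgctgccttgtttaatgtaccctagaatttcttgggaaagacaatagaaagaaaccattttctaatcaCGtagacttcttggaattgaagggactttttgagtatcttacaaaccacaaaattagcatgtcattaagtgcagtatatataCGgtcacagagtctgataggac
Ins1 (chr19:52338613-52338812, plus strand): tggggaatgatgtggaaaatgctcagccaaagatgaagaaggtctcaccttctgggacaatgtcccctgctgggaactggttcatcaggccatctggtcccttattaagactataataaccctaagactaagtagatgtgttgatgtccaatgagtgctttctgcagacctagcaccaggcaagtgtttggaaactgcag
Olfr711 (chr7:114118966-114119165, minus strand): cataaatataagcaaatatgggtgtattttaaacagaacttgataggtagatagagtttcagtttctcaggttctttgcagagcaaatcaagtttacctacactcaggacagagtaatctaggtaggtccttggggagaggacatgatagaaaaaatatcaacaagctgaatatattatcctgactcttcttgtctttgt
The CpG-rich promoters of the activity-regulated genes Arc and Fos are shown for contrast.
Arc (chr15:74503001-74503200, minus strand): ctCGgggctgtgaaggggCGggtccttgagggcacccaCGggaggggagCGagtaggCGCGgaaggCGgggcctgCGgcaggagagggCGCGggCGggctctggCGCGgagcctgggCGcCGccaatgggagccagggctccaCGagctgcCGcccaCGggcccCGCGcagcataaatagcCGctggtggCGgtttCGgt
Fos (chr12:86814640-86814839, plus strand): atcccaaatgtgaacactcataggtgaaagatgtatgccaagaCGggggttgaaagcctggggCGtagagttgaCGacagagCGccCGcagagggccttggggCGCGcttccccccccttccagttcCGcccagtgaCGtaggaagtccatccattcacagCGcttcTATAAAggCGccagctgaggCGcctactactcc

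These stretches held from 0 CpGs (Mybph, Ins1 and Olfr711) to 4 (Opalin) in the CpG-poor genes, against 12 in Fos and 23 in Arc. A low CpG count went with high and with low H4K5ac, as the Mybph and Olfr711 promoters show. Their GC content differed, with 62.0% in Mybph and 35.5% in Olfr711.

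CpG-poor promoters had a median of 10 CpGs per kb (range 0 to 42, with none in 39 promoters), and CpG-rich promoters a median of 72. The median GC content was 46.1% (quartiles 40.9 and 51.2) against 61.4% (57.2 and 65.8). The genes behind CpG-poor promoters were shorter, with a median length of 7408 bp against 25186 bp and a median of 4 exons against 9, and 1975 of them (23.3%) had a single exon against 440 (4.42%). In 2055 genes (24.3%) the annotated start coincided with the first coding base, so that no 5′ UTR was annotated and the true TSS may lie further upstream. That was the case for 313 CpG-rich genes (3.15%). The share of CpG-poor promoters ran from 26.4% of the genes of chromosome 12 to 54.2% of those of chromosome 7.

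Core promoter words differed between the classes as well. TATAAA was found on the sense strand between 40 and 16 bases before the TSS in 400 CpG-poor promoters (4.72%), in 77 CpG-rich ones (0.774%) and in 2.42% of all. GGGCGG, a word bound by Sp1 that itself holds a CpG, was found on either strand of the upstream 200 bases in 8.32% of CpG-poor, 63.4% of CpG-rich and 38.2% of all promoters. CCAAT, searched in the same way and bound by NF-Y, was found in 28.8%, 31.4% and 30.3%. Each match describes letters only, and the words were searched independently of each other, so that they may overlap.

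H4K5ac at CpG-poor promoters lay near the mean of the genome, while CpG-rich promoters stood well above it. Reads were counted once per 5′ position and strand, and density is given relative to the mean density of the library over the autosomes. Within 1 kb of CpG-poor TSSs, H4K5ac density was 1.07 (95% Poisson interval 1.06 to 1.07) in FC and 0.993 (0.989 to 0.997) in CON. At CpG-rich TSSs it was 1.99 (1.98 to 1.99) and 1.71 (1.70 to 1.71). The CpG-poor density was therefore 0.537 times the CpG-rich density in FC (exact binomial interval 0.534 to 0.540) and 0.582 times in CON (0.579 to 0.585). Intervals here and throughout cover counting error only. In the 1 kb upstream the ratio was 0.456 and 0.483, and in the 1 kb downstream 0.649 and 0.729.

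The IgG-IP libraries ordered the classes the other way within 1 kb and 2 kb. Within 5 kb they did not, with CpG-poor over CpG-rich ratios of 0.981 in FC and 0.958 in CON. The input libraries did so within 1 kb but not within 2 kb. IgG-IP density within 1 kb was 0.953 in FC and 0.955 in CON at CpG-poor promoters, against 0.739 and 0.756 at CpG-rich ones. Input density was 1.14 and 0.973 at CpG-poor promoters and 1.12 and 0.837 at CpG-rich ones. Within 2 kb it was 1.10 and 0.965 at CpG-poor promoters against 1.20 and 0.967 at CpG-rich ones. Relative to IgG-IP, H4K5ac was 1.12-fold (1.11 to 1.13) in FC and 1.04-fold (1.03 to 1.05) in CON at CpG-poor promoters, and 2.69-fold and 2.26-fold at CpG-rich promoters. Relative to input it was 0.934-fold and 1.02-fold at CpG-poor promoters, and 1.77-fold and 2.04-fold at CpG-rich promoters. The side of 1 on which CpG-poor promoters fell was not stable in either group, since isolated genes had IgG-IP ratios of 0.896 (FC) and 0.842 (CON), and the CON ratio was 0.953 at a CpG ratio below 0.3 and 0.965 within 5 kb. The median promoter lay below IgG-IP in both groups, with log2 ratios of -0.15 and -0.25 within 2 kb.

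Single CpG-poor promoters were spread widely around these means. The quartiles of H4K5ac density within 1 kb were 0.317, 0.815 and 1.59 in FC and 0.308, 0.808 and 1.501 in CON. For IgG-IP they were 0.624, 0.935 and 1.25 in FC and 0.700, 0.963 and 1.23 in CON. The variance of the H4K5ac read counts over genes was 17.5 and 18.4 times their mean, against 2.29 and 2.46 times for IgG-IP and 9.40 and 3.95 times for input. Counting error alone gives a quotient of 1, and the quotient grows with depth, which differed between the libraries (26426406 unique autosomal reads for H4K5ac and 11516839 for IgG-IP in FC), so the quotients are not comparable between libraries as they stand. CpG-poor promoters just below the limit (ratio 0.38 to 0.40, 301 genes) had H4K5ac densities of 1.55 in FC and 1.42 in CON. Just above it (0.40 to 0.42), 283 genes had 1.73 and 1.56.

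**Figure D1:**
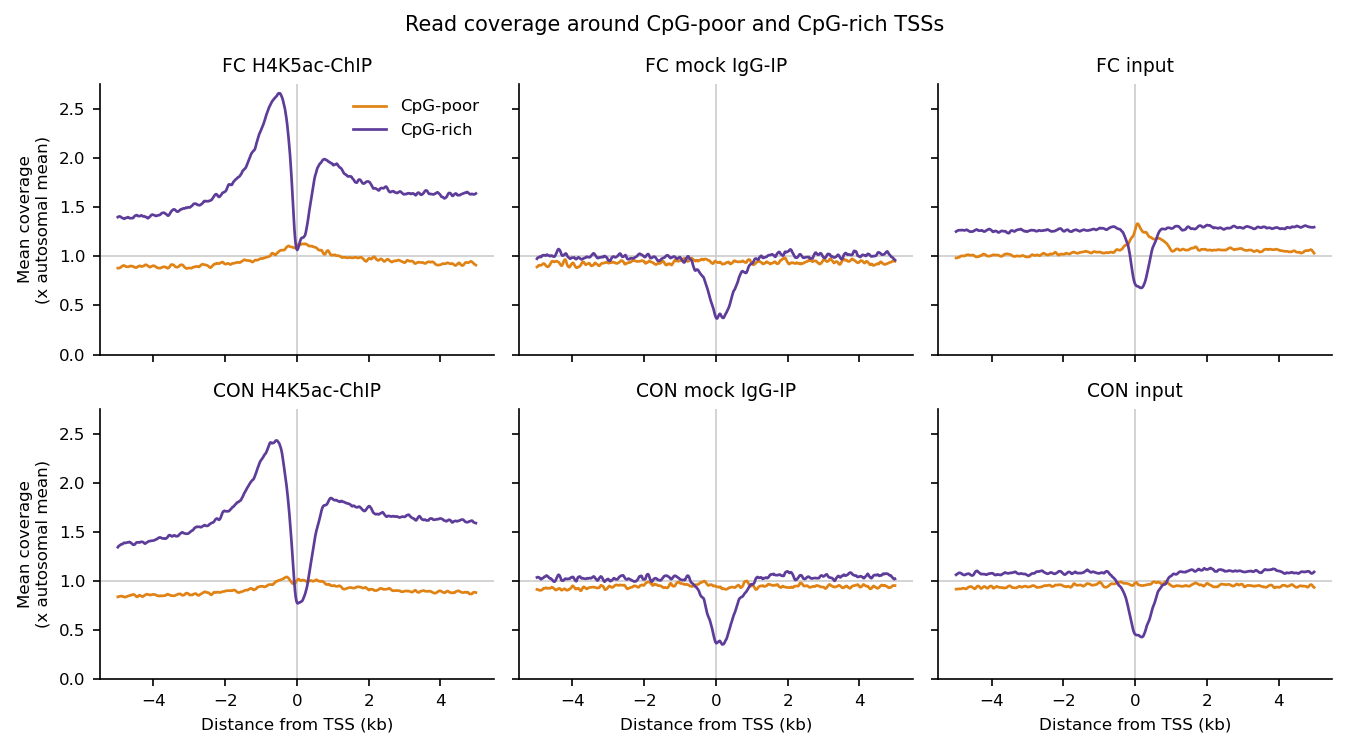
Mean read coverage around the TSS of 8469 CpG-poor (orange) and 9947 CpG-rich (purple) genes, with distance from the TSS in kb on the x axis and coverage relative to the autosomal mean on the y axis, for the H4K5ac-ChIP, mock IgG-IP and input library of FC (top) and CON (bottom). CpG-poor H4K5ac rose to 1.11 and 1.04 upstream of the TSS with a shallow dip after it, to 1.09 and 0.968, while the CpG-rich curve reached 2.66 and 2.43 upstream and fell at the TSS in all 6 libraries.

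The shape of the H4K5ac profile differed between the classes. At CpG-poor TSSs coverage rose from a flank of 0.895 (3 to 5 kb upstream) to 1.11 at 230 bp upstream in FC, and from 0.853 to 1.04 at 290 bp upstream in CON, which is 1.24 and 1.22 times the flank. The lowest value within 300 bp of the TSS was 0.981 and 0.931 times that summit, a shallow dip 70 bp upstream of the TSS in both groups. CpG-rich TSSs had an upstream summit 1.86 and 1.71 times the flank at 490 and 570 bp upstream, and coverage near the TSS then fell to 0.746 and 0.543 times the flank. As a result the core promoter, from 150 bp upstream to 50 bp downstream, had nearly equal H4K5ac density in both classes in CON (1.00 against 0.994) and 1.11 against 1.32 in FC.

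The same positions moved in the control libraries. IgG-IP coverage at CpG-rich TSSs fell to 0.366 and 0.344 times its flank and input to 0.539 and 0.399 times, whereas at CpG-poor TSSs the lowest IgG-IP value was 0.999 and 0.989 times the flank. In the core promoter, H4K5ac over IgG-IP was 1.18 and 1.04 for CpG-poor genes and 2.80 and 2.16 for CpG-rich genes. The FC input rose at CpG-poor TSSs as well, to 1.32 times its flank at 70 bp downstream, which exceeds the highest H4K5ac value within 300 bp of the TSS, 1.26 times its flank at 230 bp downstream. The CON input reached 1.05 times its flank within 300 bp. The mean GC content of CpG-poor genes was highest, at 49.8%, in the first 100 bp downstream, against 43.2% in the upstream flank, and the part of GC content in the rise of these profiles was not tested.

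**Figure D2:**
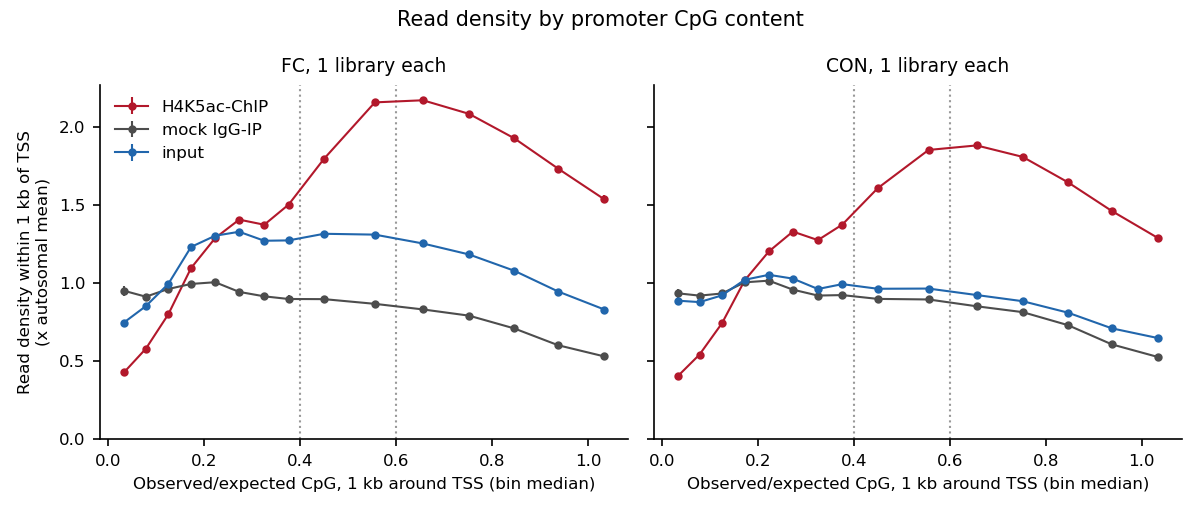
Read density within 1 kb of the TSS relative to the autosomal mean (y axis) for protein-coding genes binned by observed over expected CpG ratio (x axis, bin median), for FC (left) and CON (right), with dotted lines at the limits of 0.4 and 0.6 and 95% Poisson bars mostly smaller than the points. H4K5ac climbed from 0.427 and 0.402 in the bin with the fewest CpGs to 2.17 and 1.88 between 0.6 and 0.7, and the IgG-IP stayed close to its mean across the CpG-poor range.

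Within the CpG-poor genes H4K5ac was higher in most bins of higher CpG content. Density was 0.427 in FC and 0.402 in CON for the 382 promoters with a ratio under 0.05, 1.09 and 1.02 for the 1560 with 0.15 to 0.20, 1.40 and 1.33 for the 1014 with 0.25 to 0.30, lower at 1.37 and 1.27 for the 845 with 0.30 to 0.35, and 1.43 and 1.32 for the 1579 with 0.3 to 0.4. Across the same bins IgG-IP density stayed between 0.897 and 1.01 in both groups. The quotient of H4K5ac and IgG-IP thus moved from 0.450 to 1.67 (FC) and from 0.430 to 1.49 (CON) between the lowest bin and the 734 promoters with 0.35 to 0.4. Of the CpG-poor genes with a ratio under 0.1, 56.1% had H4K5ac at least 2-fold below IgG-IP in both groups, and 2.81% had it at least 2-fold above. Over all CpG-poor promoters these shares were 26.7% and 11.4%, and over all promoters 10.8% and 30.2%. The rule's own measure orders these bins, and the median GC content rose with it from 41.3% to 50.3%.

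**Figure D3:**
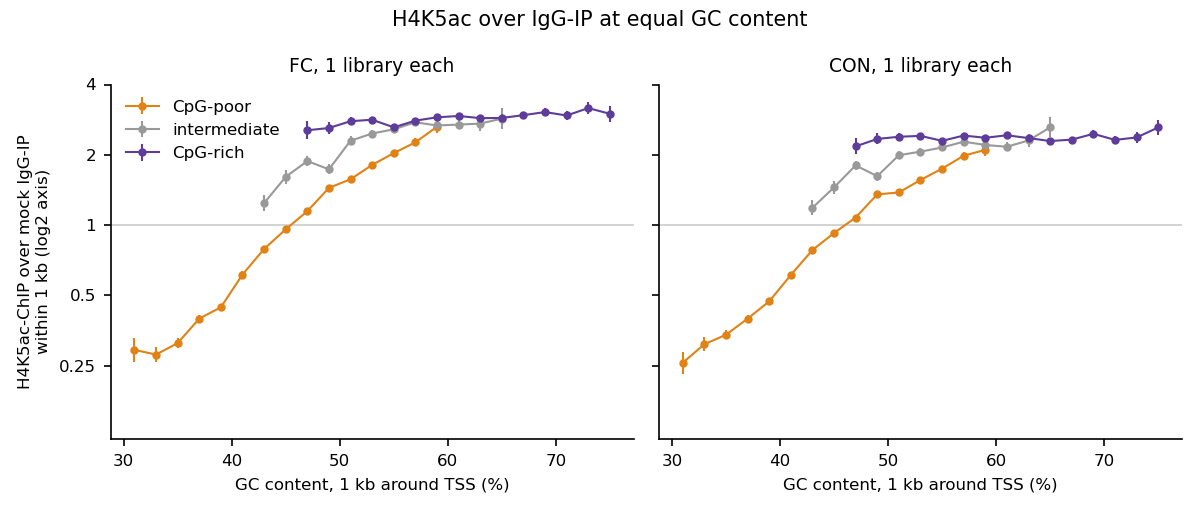
Pooled H4K5ac-ChIP over mock IgG-IP density within 1 kb of the TSS (log2 axis) against GC content of the 1 kb around the TSS in steps of 2% (x axis), for CpG-poor, intermediate and CpG-rich genes, in FC (left) and CON (right), with exact 95% binomial bars. The CpG-poor line rose from 0.292 and 0.257 at 30 to 32% GC to 2.64 and 2.10 at 58 to 60% and reached the intermediate line at its upper end but stayed below the CpG-rich line, while the CpG-rich line was nearly flat.

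H4K5ac over IgG-IP at CpG-poor promoters rose with their GC content, and the rise was smaller over input. The 363 promoters of 34 to 36% GC had 0.312 times (0.297 to 0.328) the IgG-IP density in FC and 0.339 times (0.324 to 0.355) in CON. The values were 0.958 and 0.924 for the 899 promoters of 44 to 46%, and 2.64 (2.47 to 2.82) and 2.10 (1.98 to 2.23) for the 136 promoters of 58 to 60%. Over input, the same promoters of 34 to 36% and 58 to 60% had 0.643 and 1.33 in FC, where input density itself went from 0.533 to 1.57, and 0.375 and 1.82 in CON. CpG-rich promoters of the same GC content changed little, from 2.55 and 2.17 at 46 to 48% to 2.89 and 2.36 at 58 to 60%. The gap between the classes was therefore 2.55 against 1.15 in FC at 46 to 48% GC, and 2.89 against 2.64 at 58 to 60%. Weighted over the 7 strata from 46 to 60% GC that hold both classes (4234 CpG-poor and 4042 CpG-rich genes), H4K5ac density at CpG-poor promoters was 0.646 times that at CpG-rich promoters in FC and 0.652 times in CON.

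At equal GC content, promoters with more CpGs had more H4K5ac where GC was low. At 42 to 44% GC, the ratio to IgG-IP in FC was 0.627 (0.603 to 0.651) for the 524 promoters with a CpG ratio below 0.2 and 1.05 (1.01 to 1.10) for the 286 promoters with 0.2 to 0.4, and in CON 0.629 and 1.01. At 56 to 58% GC the intervals overlapped in both groups, with 2.42 (2.25 to 2.60) for 104 promoters below 0.2 and 2.20 (2.10 to 2.30) for 259 promoters of 0.2 to 0.4 in FC, and 2.04 (1.91 to 2.19) and 1.96 (1.87 to 2.04) in CON.

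The level also differed with the neighbourhood of the promoter. A further gene of any biotype lay within 5 kb of 2758 CpG-poor TSSs (32.6%), a CpG-rich transcript start lay within 5 kb of 432 (5.10%), and 449 genes (5.30%) had a CpG-rich start of their own somewhere. The ratio to IgG-IP was 2.24 (FC) and 2.03 (CON) beside a CpG-rich start, 1.98 and 1.75 in genes with their own, and 0.896 (0.887 to 0.906) and 0.842 (0.834 to 0.850) at the 5606 isolated promoters with neither a gene nor such a start within 5 kb. The median GC content of these groups was 49.1%, 48.1% and 44.9%, and its part in the differences was not tested. Neighbouring windows overlap, so the same reads can count for more than 1 gene.

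The level differed by annotation and core promoter words too. Promoters of genes without an annotated 5′ UTR had 0.637 times the IgG-IP density in FC and 0.627 times in CON, the others 1.26 and 1.16 times, at median GC contents of 41.5% and 47.6%. Leaving out nasal receptors, CpG-poor promoters of 40 to 44% GC had 0.823 in FC without an annotated 5′ UTR (272 genes) and 0.818 as a whole (1206 genes), and those of 44 to 48% GC had 0.915 (329) and 1.10 (1619). Promoters with TATAAA had 0.919 (0.883 to 0.957) and 0.815 (0.785 to 0.846), those without it 1.13 and 1.05. Promoters with GGGCGG had 1.79 and 1.56, those without it 1.06 and 0.993, and their median GC content was 53.0% against 45.5%. CCAAT made a small difference, with 1.03 and 0.980 against 1.15 and 1.06. Genes with a body over 50 kb had 1.29 and 1.25, those under 5 kb 0.848 and 0.801, and single-exon genes 0.565 and 0.551. Their median GC contents were 46.4%, 43.8% and 41.0%. The part of GC content and of nasal receptors in these differences was not tested.

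Few CpG-poor promoters reached a clear excess of H4K5ac over the mock precipitation. Within 2 kb of the TSS and with at least 10 reads over both libraries, 899 of 7868 CpG-poor promoters (11.4%) had at least 2-fold more H4K5ac than IgG-IP in FC and in CON, against 30.2% of all 20715 promoters tested and 4285 of 9889 CpG-rich ones (43.3%). At least 2-fold less H4K5ac than IgG-IP in both groups was found at 2104 CpG-poor promoters (26.7%), against 10.8% of all and 49 CpG-rich ones (0.495%). CpG-poor genes made up 2104 of the 2236 promoters in that state. A 3-fold excess over IgG-IP was passed by 191 CpG-poor promoters, against 5.70% of all, and a 2-fold excess over input by 232 of 7978, against 11.0% of all. The fold is a threshold of size, since 1 library per group allows no call by a test. In the 899 promoters above IgG-IP, H4K5ac coverage rose to 2.98 in FC and 2.66 in CON upstream of the TSS. The high level follows from how these promoters were chosen. Their flanks stood at 2.00 and 1.87, so that the summit was 1.49 and 1.42 times the flank. The choice used reads within 2 kb of the TSS, and the flank lies 3 to 5 kb upstream. The quotient of summit and flank is therefore shaped by the choice as well. Coverage stayed at 0.867 and 0.873 times that summit at its lowest point near the TSS.

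**Figure D4:**
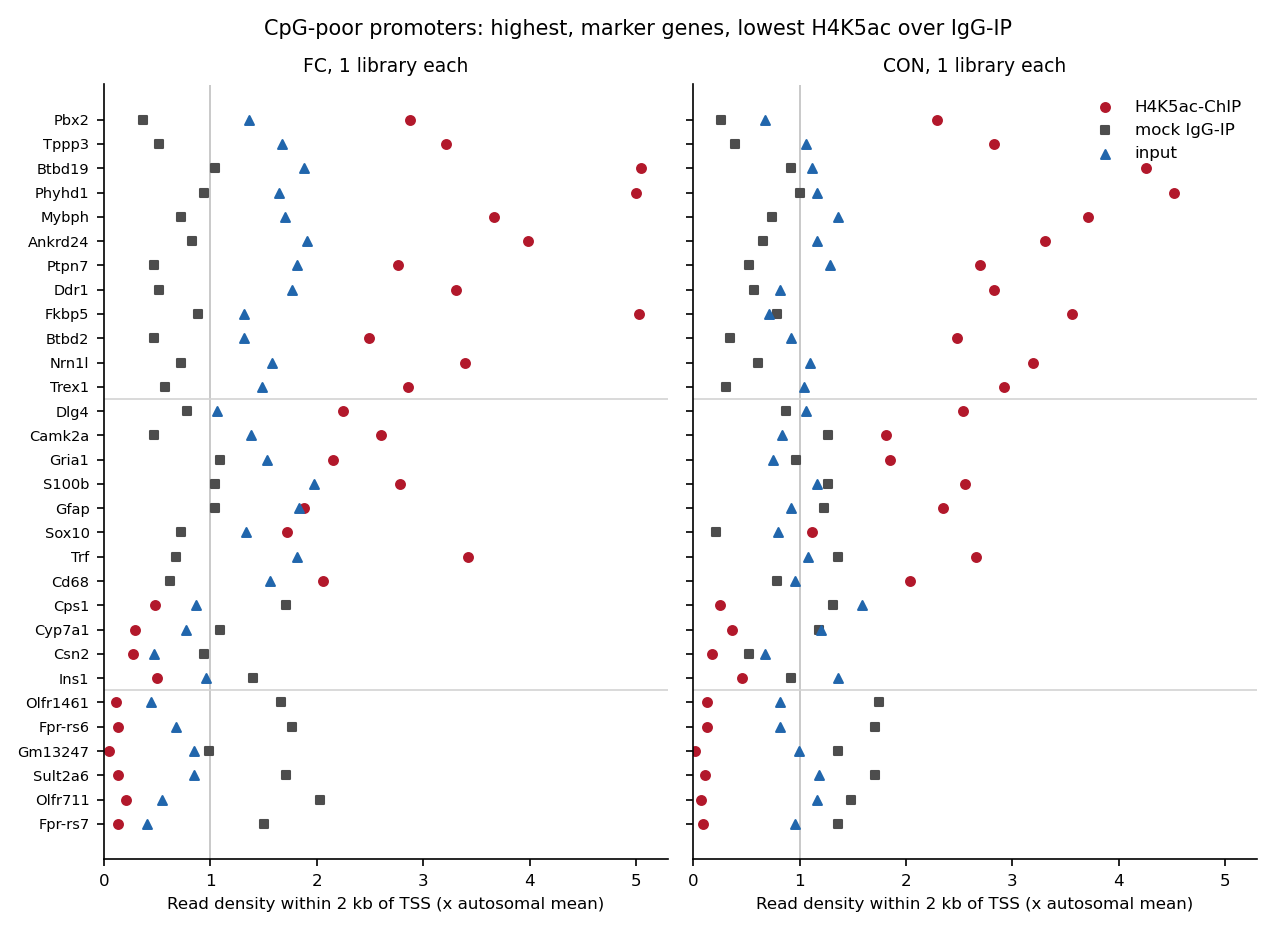
Read density within 2 kb of the TSS relative to the autosomal mean (x axis) for single CpG-poor promoters in FC (left) and CON (right), with H4K5ac-ChIP as circles, mock IgG-IP as squares and input as triangles. The 12 promoters with the highest H4K5ac over IgG-IP are at the top and the 6 lowest at the bottom. In both groups H4K5ac lay right of IgG-IP at the top and left of it at the bottom, which follows from the choice. The 12 marker genes in the middle are a selection from the lists. Among list members not drawn, Neurod6, Vip and Ptprc had less H4K5ac than IgG-IP, and Apoa1, Lpo and Casq1 had more.

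The 12 CpG-poor promoters with the highest H4K5ac over IgG-IP, ranked by the smaller of the lower interval bounds of both groups and leaving out promoters with unusual input, were Pbx2, Tppp3, Btbd19, Phyhd1, Mybph, Ankrd24, Ptpn7, Ddr1, Fkbp5, Btbd2, Nrn1l and Trex1. H4K5ac over IgG-IP ran from 4.67 to 7.91 in FC and from 4.49 to 9.54 in CON, and over input from 1.52 to 3.82 and 2.10 to 4.99. All 12 had a GC content of at least 53.0%. A neighbouring gene or a CpG-rich start lay within 5 kb in 10 of them, and Fkbp5 had a CpG-rich start of its own elsewhere, so that Ptpn7 alone had none of these. Input within 2 kb was above the mean in all 12 in FC and below it for Pbx2, Ddr1, Fkbp5 and Btbd2 in CON.

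Phyhd1, a dioxygenase gene on chromosome 2 (TSS at 30121723, plus strand), had an H4K5ac density of 5.005 in FC and 4.52 in CON, IgG-IP densities of 0.935 and 1.01, and input densities of 1.64 and 1.16. Its ratio to IgG-IP was 5.35 (3.31 to 9.20) and 4.49 (2.92 to 7.22). With 10 CpGs in the 1 kb around the TSS, it had the median CpG count of the class. Mybph, the myosin binding protein H gene on chromosome 1 (TSS at 136090025, plus strand), had 3.67 in FC and 3.71 in CON for H4K5ac, 0.727 and 0.744 for IgG-IP, and 1.71 and 1.36 for input. Fkbp5, a co-chaperone of the glucocorticoid receptor on chromosome 17 (TSS at 28654469, minus strand), had H4K5ac densities of 5.03 and 3.56, IgG-IP densities of 0.883 and 0.788 and input densities of 1.31 and 0.713. That H4K5ac lay above IgG-IP at these 3 promoters follows from how they were chosen.

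Tppp3, a tubulin polymerisation-promoting protein on chromosome 8, had H4K5ac densities of 3.22 in FC and 2.83 in CON beside IgG-IP densities of 0.520 and 0.394. Its ratio of 6.19 (3.27 to 13.2) and 7.18 (3.68 to 16.0) rested on 10 and 9 IgG-IP reads. Trex1, the main DNA 3′ exonuclease of mammalian cells, on chromosome 9, had 2.85 and 2.92 for H4K5ac and 0.572 and 0.306 for IgG-IP. Ptpn7, a protein tyrosine phosphatase of haematopoietic cells, on chromosome 1, had 2.76 and 2.69 against 0.468 and 0.525. In these 3 genes the IgG-IP density lay well under the genome mean, which adds to the ratio.

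At the other end, the 6 promoters with the least H4K5ac relative to IgG-IP were Olfr1461, Fpr-rs6, Gm13247, Sult2a6, Olfr711 and Fpr-rs7, none with a further gene within 5 kb and none above 44.0% GC. Olfr711, an odorant receptor gene on chromosome 7, had H4K5ac densities of 0.204 in FC and 0.0770 in CON, IgG-IP densities of 2.03 and 1.49 and input densities of 0.548 and 1.16. Fpr-rs6 and Fpr-rs7, formyl peptide receptor genes of the vomeronasal organ on chromosome 17, had H4K5ac densities of 0.136 in FC, and 0.135 and 0.0962 in CON. Sult2a6, a hydroxysteroid sulfotransferase gene, had 0.136 and 0.115 against IgG-IP densities of 1.71 in both groups. The highest H4K5ac count among these 6 promoters was 9 reads in 4 kb, where the genome mean is 44.2 in FC and 52.0 in CON.

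Chemosensory receptor genes made up 1097 of the 2104 CpG-poor promoters with at least 2-fold less H4K5ac than IgG-IP. They are expressed in the nose, a sensory neuron using a single receptor, and 1097 of 1106 olfactory and 320 of 321 vomeronasal receptor genes were CpG-poor, 1417 together. Their H4K5ac density within 1 kb was 0.331 in FC and 0.303 in CON, with IgG-IP at 1.07 and 1.03. The ratio to IgG-IP was 0.309 (0.301 to 0.317) and 0.295 (0.288 to 0.302). Of the 1336 receptor promoters with enough reads, 82.1% were at least 2-fold below IgG-IP in both groups, and 1 was at least 2-fold above. The shares below and above were 26.7% and 11.4% of all CpG-poor promoters, and 10.8% and 30.2% of all promoters. They are also GC-poor, with a median of 38.4%. Between 36 and 40% GC the FC ratio was 0.248 (0.237 to 0.260) for 534 receptors and 0.587 (0.567 to 0.608) for 594 other CpG-poor promoters, and the CON ratio 0.245 and 0.616. Of the other promoters, the 187 of genes with no annotated 5′ UTR had 0.528 (0.491 to 0.568) in FC. Some receptors are near-identical copies, and reads of such copies may be split or lost in the alignment. Without them the remaining 7052 CpG-poor promoters had 1.31 and 1.20.

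**Figure D5:**
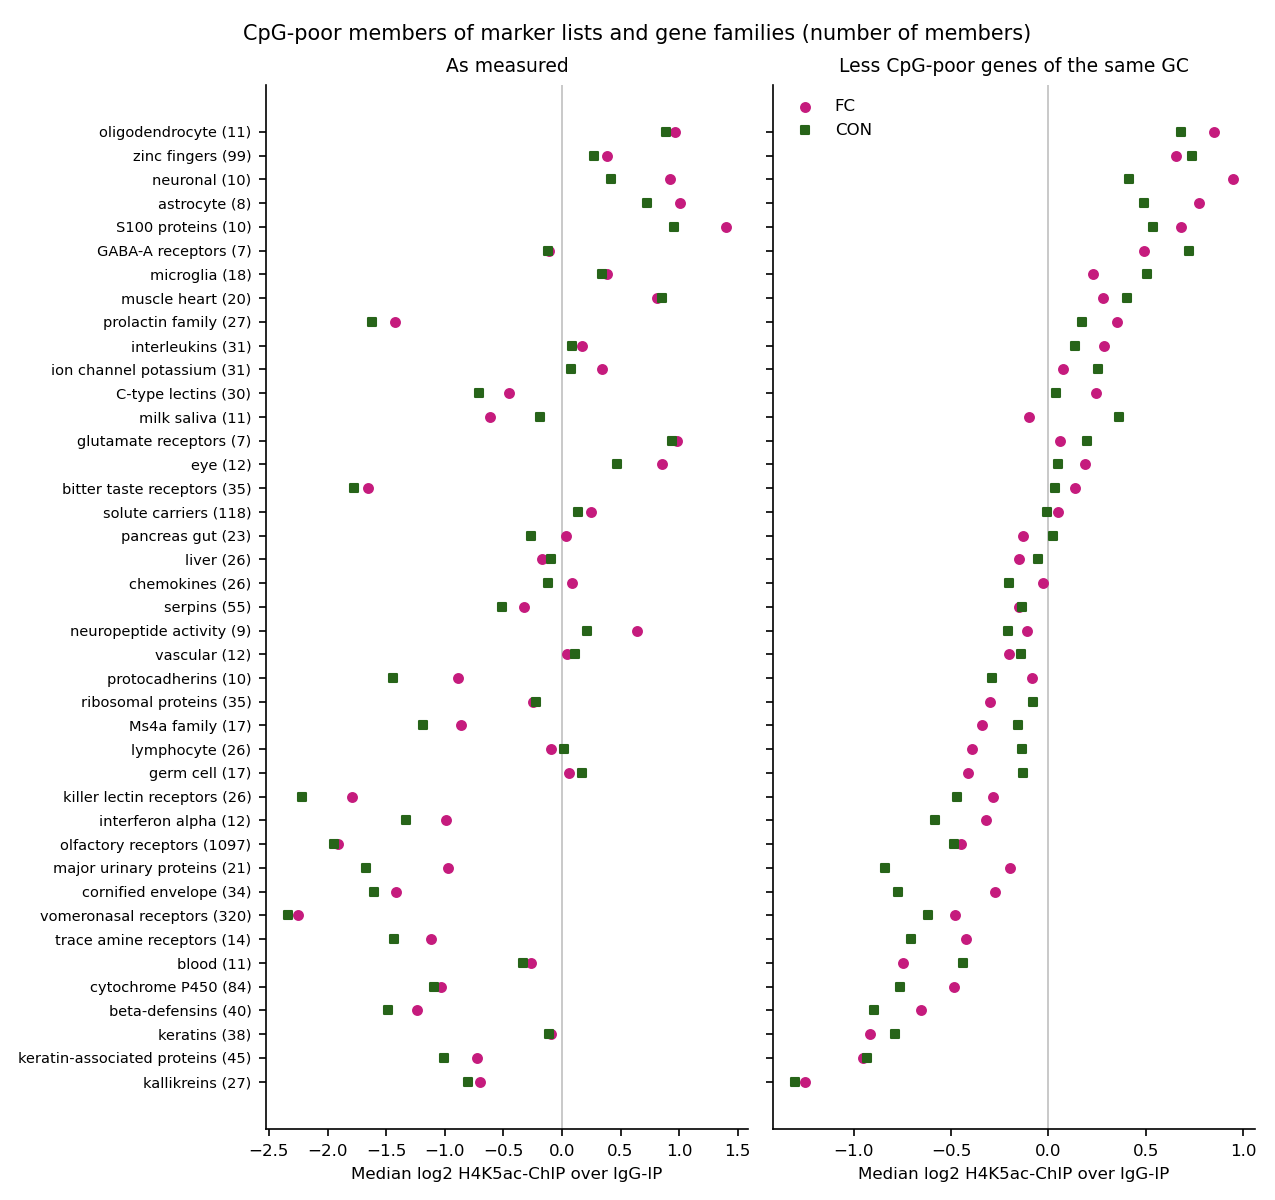
Median log2 ratio of H4K5ac-ChIP to mock IgG-IP within 2 kb of the TSS over the CpG-poor members of each marker list or gene family (number of members in parentheses), for FC (circles) and CON (squares), as measured (left) and after subtracting the median of CpG-poor promoters in the same 2% step of GC content (right). With nasal receptors included in the steps, as drawn, neuronal, astrocyte, oligodendrocyte, microglia, muscle and heart and eye genes lay right of 0 in both panels. So did zinc fingers, S100 proteins, interleukins, glutamate receptors and potassium channels. Without the receptors in the steps, microglia genes were at -0.06 in FC on the right, and eye genes and potassium channels fell left of 0 in both groups. Neuropeptide and activity genes lay right of 0 as measured and left of 0 in the right panel. Also left of 0 there were kallikreins, keratin-associated proteins, keratins, cytochromes P450, beta-defensins and nasal receptors.

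Marker genes of brain cells were compared with those of other organs, all CpG-poor, as log2 ratios to IgG-IP within 2 kb. The median over all CpG-poor promoters was -0.15 in FC and -0.25 in CON. It was 0.92 and 0.41 for 10 neuronal genes, 1.01 and 0.73 for 8 astrocyte genes, 0.96 and 0.89 for 11 oligodendrocyte genes and 0.39 and 0.34 for 18 microglia genes. For 12 vascular genes it was 0.04 and 0.11, for 26 lymphocyte genes -0.10 and 0.02, for 26 liver genes -0.17 and -0.09, for 23 genes of pancreas and gut 0.04 and -0.26, for 11 blood genes -0.27 and -0.33, and for 11 genes of milk and saliva -0.61 and -0.19. Muscle and heart genes (20) had 0.81 and 0.85 and eye genes (12) 0.85 and 0.47, which places them beside the brain lists, at median GC contents of 53.8% and 51.8%. Germ cell genes (17) had 0.06 and 0.17. With input in place of IgG-IP as the control, the FC median ratio was below 1 for neuropeptide and activity (0.871), microglia (0.898), muscle and heart (0.953), eye (0.833) and germ cell genes (0.749). Median ratios to input are not given for the other lists. In FC the median H4K5ac density lay below the median input density for vascular (0.906 against 1.18) and pancreas and gut genes (0.906 against 1.44). It lay above for neuronal (1.90 against 1.33), astrocyte (1.79 against 1.66) and oligodendrocyte genes (1.92 against 1.35). At least 2-fold above IgG-IP in both groups were 1 of 10 neuronal, 2 of 8 astrocyte, 1 of 11 oligodendrocyte, 1 of 18 microglia, 3 of 20 muscle and heart, 2 of 23 pancreas and gut, 0 of 26 liver and 0 of 11 blood genes, where the share of all CpG-poor promoters was 11.4% and that of all promoters 30.2%. At least 2-fold below were 0 genes of the first 5 of these lists, 3 of pancreas and gut, 5 of liver and 3 of blood, beside 26.7% of all CpG-poor promoters and 10.8% of all promoters. With so few members per list these counts do not set the lists apart from the class.

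Relative to CpG-poor promoters of the same GC content, the neuronal, astrocyte, oligodendrocyte and muscle lists had medians above 0 in both groups, also when nasal receptors, which fill much of the low GC steps, were left out of the step median. The GC-centred median was 0.95 in FC and 0.41 in CON for neuronal, 0.77 and 0.49 for astrocyte, 0.85 and 0.68 for oligodendrocyte and 0.23 and 0.51 for microglia genes, and 0.28 and 0.41 for muscle and heart genes. It was above the median of its GC step for 8 of 8 astrocyte genes in FC and 7 in CON, for 9 and 7 of 10 neuronal genes, for 8 of 11 oligodendrocyte genes and 10 of 18 microglia genes in each group, and for 12 and 13 of 20 muscle and heart genes. Blood genes had -0.75 and -0.44 and lymphocyte genes -0.39 and -0.14, and liver genes -0.15 and -0.05. Eye genes had 0.19 and 0.05, vascular genes -0.20 and -0.14, and genes of milk and saliva -0.10 and 0.36. With the receptors left out of the steps, the medians were 0.87 and 0.20 for neuronal, 0.77 and 0.46 for astrocyte, 0.81 and 0.63 for oligodendrocyte and 0.09 and 0.31 for muscle and heart genes. The microglia list then had -0.06 in FC and 0.38 in CON, eye genes -0.0016 and -0.09, and genes of milk and saliva -0.46 and -0.0093, so that these 3 changed side in at least 1 group. The CpG-rich members had medians, as measured, of 0.53 and 0.18 for the neuronal (16 genes), 1.08 and 0.85 for the astrocyte (6), 1.05 and 0.85 for the oligodendrocyte (6) and 1.23 and 0.99 for the neuropeptide and activity list (15). In the last list the classes hold unlike genes, since its 9 CpG-poor members are all neuropeptides and its CpG-rich members are mostly immediate early genes. Its CpG-rich neuropeptides had log2 ratios of -0.09 and -0.13 (Penk), -0.82 and -0.03 (Tac1) and -0.26 and 0.29 (Npy).

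Of the neuronal genes, Dlg4 (chromosome 11) had H4K5ac densities of 2.24 in FC and 2.54 in CON against IgG-IP densities of 0.779 and 0.875, a ratio of 2.88 (1.66 to 5.33) and 2.90 (1.80 to 4.90). A CpG-rich start lies within 5 kb of it. Gria1, the AMPA receptor subunit GluA1, had ratios of 1.97 (1.22 to 3.33) and 1.92 (1.20 to 3.20). Camk2a, a kinase of the postsynaptic density, had H4K5ac densities of 2.60 and 1.81 and IgG-IP densities of 0.468 in FC and 1.27 in CON. Its FC ratio was 5.57 (2.83 to 12.5) and its CON ratio 1.42 (0.931 to 2.24), so that both densities entered the difference between the ratios. Neurod6, a transcription factor of pyramidal neurons, had the lowest ratios of the list, 0.780 (0.432 to 1.45) and 0.667 (0.401 to 1.13), with intervals that include 1. Among the neuropeptide genes, Hcrt (orexin) had 2.38 and 4.40 with CpG-rich starts within 5 kb, and Vip (vasoactive intestinal peptide) 0.550 and 0.541. The neuropeptide and activity list (9 genes) had a median log2 ratio of 0.64 and 0.21, which in FC turned to a median ratio of 0.871 against input and 0.965 in a 1 kb window, and of -0.11 and -0.21 relative to its GC content.

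Of the glial genes, S100b, a calcium-binding protein of astrocytes, had H4K5ac densities of 2.79 in FC and 2.56 in CON, with ratios to IgG-IP of 2.68 (1.66 to 4.54) and 2.02 (1.34 to 3.13). Gfap, the astrocyte intermediate filament, had densities of 1.88 and 2.35 and ratios of 1.81 (1.10 to 3.11) and 1.92 (1.26 to 3.00). Sox10, the transcription factor of oligodendrocytes, had H4K5ac densities of 1.72 and 1.12 and ratios of 2.37 (1.33 to 4.53) and 5.10 (2.06 to 16.3), the last of these on an IgG-IP density of 0.219. Opalin, a myelin membrane protein, had 2.08 (1.13 to 4.12) and 1.85 (1.02 to 3.59). Cd68, a lysosomal protein of microglia and macrophages, had 3.30 (1.80 to 6.63) and 2.59 (1.56 to 4.54), with 6 further genes within 5 kb. Ptprc, the leukocyte antigen CD45, had 0.418 (0.225 to 0.773) and 0.659 (0.413 to 1.07).

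Organ genes outside the brain showed both ends of the range. Of the liver genes, Cps1 of the urea cycle had ratios of 0.277 (0.152 to 0.494) in FC and 0.190 (0.0912 to 0.376) in CON, and Cyp7a1, the rate-limiting enzyme of bile acid synthesis, had 0.270 (0.124 to 0.565) and 0.309 (0.163 to 0.577). Apoa1, the main protein of high-density lipoprotein, had 2.51 (1.55 to 4.26) and 1.93 (1.29 to 2.98). Cyp7a1 has 37.7% GC around its TSS and Apoa1 55.6%. Csn2, the milk protein beta-casein, had 0.291 and 0.330, and Lpo, the peroxidase of milk and saliva, had 3.07 and 2.40. Ins1, an insulin gene, had 0.355 (0.193 to 0.647) and 0.502 (0.268 to 0.949) at 51.2% GC. Casq1, the calcium store protein of skeletal muscle, had H4K5ac densities of 3.83 and 3.37 and ratios of 3.68 (2.31 to 6.18) and 2.85 (1.89 to 4.45). The embryonic globin gene Hbb-bh1 had 0.279 and 0.163.

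Gene families differed in their level relative to CpG-poor promoters of the same GC content. The GC-centred median was -1.25 in FC and -1.30 in CON for 27 kallikreins (secreted proteases), -0.95 and -0.93 for 45 keratin-associated proteins of hair, -0.92 and -0.79 for 38 keratins, -0.65 and -0.89 for 40 beta-defensins, and -0.49 and -0.76 for cytochromes P450 (81 of 84 with enough reads). Olfactory receptors had -0.45 and -0.48, with 1093 and 1094 of 1097 measurable, and vomeronasal receptors -0.48 and -0.62, with 248 and 247 of 320. The median subtracted includes these receptors themselves, which numbered 318 beside 209 other CpG-poor promoters at 32 to 36% GC and 534 beside 594 at 36 to 40%. With them left out of the steps, olfactory receptors had -0.86 and -0.93 and vomeronasal receptors -1.07 and -1.15. Of the 27 kallikreins, 1 in FC and 3 in CON exceeded the median of their GC step. Bitter taste receptors (35), with a median GC content of 36.4%, had a measured median of -1.65 and -1.77 and a centred one of 0.14 and 0.04, which turned to -0.24 and -0.37 without the nasal receptors in the steps. The prolactin family (26 measurable of 27) had -1.42 and -1.62 measured and 0.35 and 0.17 centred, which turned to -0.09 and -0.36. Interleukins (31) had 0.28 and 0.14 centred, and 0.23 and 0.14 without the receptors in the steps. C-type lectins (30) had 0.24 and 0.04 centred, and 0.02 and -0.27 without them. Zinc finger genes with CpG-poor promoters (92 measurable of 99) had 0.66 and 0.74 centred, GABA-A receptor subunits (7) 0.49 and 0.72, and S100 proteins (10) 0.68 and 0.54. Without the nasal receptors in the steps these were 0.53 and 0.56, 0.10 and 0.46, and 0.68 and 0.52. Glutamate receptor subunits (7) had 0.98 and 0.94 as measured and 0.06 and 0.20 centred, at a median GC content of 55.6%.

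FC and CON H4K5ac libraries differed little at CpG-poor promoters. Over 7207 promoters with at least 20 H4K5ac reads, the median log2 ratio of FC to CON was 0.09 (quartiles -0.14 and 0.30), against 0.12 for CpG-rich promoters and 0.11 for all. A ratio of at least 1.5 was seen at 581 CpG-poor promoters (8.06%), against 5.31% of all promoters, and a ratio of 1.5 or more in the other direction at 302 (4.19%), against 1.77% of all. After subtracting the input difference the counts were 1080 and 1456, which turned the excess of higher over lower. No share of all promoters stands beside these 2 counts, so they do not set the class apart. The counts per promoter were lower in the CpG-poor class, with a median of 36 H4K5ac reads in FC against 84 in the CpG-rich class, and the part of depth in these shares was not tested. In the control libraries, which carry no H4K5ac selection, the same fold was passed at 9.32% and 11.9% of CpG-poor promoters for IgG-IP. Over all promoters these shares were 9.25% and 13.8%. For input they were 20.9% and 14.4% of CpG-poor promoters, against 23.8% and 6.48% of all. These figures compare 2 libraries and not the conditions.

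The FC over CON ratio moved with GC content. Pooled over CpG-poor promoters it was 1.01 at 36 to 40% GC, 1.06 at 48 to 52% and 1.14 at 60 to 64% for H4K5ac, while the input ratio was 0.718, 1.32 and 1.55 in the same steps and the IgG-IP ratio 1.02, 0.984 and 0.909. The FC input library thus held relatively more GC-rich reads than the CON input library, and its part in the H4K5ac difference was not tested.

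Most of the promoters with the largest difference were read from few counts. Olfr1271 had 18 H4K5ac reads in FC and 3 in CON, a ratio of 7.06 (2.06 to 37.4), and its IgG-IP reads were 13 and 14. Taar1, a trace amine receptor gene, had 26 and 8 reads (3.83, 1.68 to 9.78), and Speer4d, Gm13119 and Dub3 had between 19 and 22 reads in FC and 5 to 7 in CON. Lower in FC were Vmn1r192 with 6 and 25 reads, Olfr1200 with 6 and 23, Gm9972 with 28 and 72 (0.458, 0.285 to 0.717), 4832428D23Rik with 30 and 74 (0.477, 0.301 to 0.738), and Hsd17b2, a steroid dehydrogenase gene, with 28 and 67 (0.492, 0.305 to 0.775). H4K5ac in FC lay below IgG-IP in all 10. The intervals are not adjusted for the 7207 promoters from which these 10 were picked. Among brain markers, Camk2a had 2.60 against 1.81 for H4K5ac, and its IgG-IP moved the other way, while Dlg4 had 2.24 against 2.54.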

How the data were processed

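H4K5ac-ChIP, mock IgG-IP and input libraries of mouse hippocampus were sequenced with short single reads and aligned by the authors with Bioscope to mm9. The deposited files list aligned reads in BED format, and their score, as the authors deposited it, is the mapping quality of the read. The labels give 1 library per group and antibody.

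Reads were counted once per 5′ position and strand and scaled to the autosomal reads of the library, with 11.5 to 17.9% of autosomal reads removed as repeats. Genes and TSSs came from GENCODE M1, and the CpG ratio, GC content and sequences from the mm9 genome. Reads were assigned by midpoint to windows of 1 kb (classes) or 2 kb (single genes) on either side of the TSS, and a read can fall in the windows of several neighbouring genes. Ratios of H4K5ac to control carry exact binomial intervals and densities exact Poisson intervals at 95%, both for counting error only. PCR copies are not independent molecules. Ratios of single genes required at least 10 reads over both libraries, and FC over CON ratios at least 20. Profiles used bins of 20 bp smoothed over 5 bins. Named genes were the 1 to 4 highest and lowest members of each list, the 12 highest and 6 lowest promoters by interval bound, with input within 5 kb between 0.5 and 2 times the mean for the highest, and the 5 promoters farthest from 1 in each direction between FC and CON. The members, lists and tests were chosen with earlier results of these data known. The ratios, their intervals and the fold calls were tested on simulated counts, and the binned coverage on simulated reads. The removal of repeats and the assignment of reads to windows were not tested in this way. Python 3.11.15, numpy 2.4.6, scipy 1.17.1, pandas 2.3.3 and matplotlib 3.10.9 were used. The alternatives were input as control, all deposited reads, other windows, a lower CpG limit, isolated genes, removal of promoters with unusual input or of nasal receptors, a mapping quality of at least 20, GC strata and, chosen after seeing the data, genes with an annotated 5′ UTR and GC steps without nasal receptors. Some promoter sequences are not reported here.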

Additional observations from a re-analysis of the deposited data

How the results depend on the processing

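In the core promoter the H4K5ac density of CpG-poor over CpG-rich promoters was 0.839 in FC and 1.01 (0.988 to 1.02) in CON. In each of the alternatives that follow, this ratio stayed below 1. From 0.537 in FC and 0.582 in CON it moved to 0.510 and 0.543 with all deposited reads, 0.531 and 0.542 in a 2 kb window, 0.495 and 0.538 at a CpG ratio below 0.3, 0.452 and 0.490 for isolated genes, 0.618 and 0.670 with input between 0.5 and 2 times the mean, 0.612 and 0.663 without nasal receptors, 0.522 and 0.570 with mapping quality of at least 20, 0.646 and 0.652 in GC strata, and 0.615 and 0.661 for genes with an annotated 5′ UTR, an alternative chosen after seeing the data. H4K5ac over IgG-IP, 1.12 and 1.04, was close to 1 and changed side. It was 0.934 and 1.02 over input, 0.896 and 0.842 for isolated genes, 1.02 and 0.953 at a CpG ratio below 0.3, 1.08 and 1.00 in a 2 kb window, 1.18 and 1.08 with all reads, 1.19 and 1.10 with normal input, 1.31 and 1.20 without receptors and 1.26 and 1.16 with an annotated 5′ UTR. The upstream summit over its flank, 1.24 and 1.22, was 1.26 for isolated genes in FC, and 1.13 and 1.17 after division by input. For isolated genes in FC the highest upstream value (0.904) lay 10 bp before the TSS, at the edge of the range searched. Coverage was higher at 170 bp downstream (0.927), so 1.26 does not describe a separate upstream summit. The 899 promoters above IgG-IP, 11.4% of 7868 tested against 30.2% of all promoters, became 191 at 3-fold, against 5.70% of all. With input as control they became 232, against 11.0% of all, and among isolated genes 311 of 5202 (5.98%). The 581 promoters higher in FC (8.06%, against 5.31% of all) became 1080 after subtracting the input difference. The 302 lower in FC (4.19%, against 1.77% of all) became 1456, or 115 in a 5 kb window. No share of all promoters stands beside 1080, 1456 and 115, so these counts do not set the class apart. Medians of lists crossed 1 with input as control for neuropeptide (0.871), microglia (0.898), muscle and heart (0.953), germ cell (0.749) and eye genes (0.833), interleukins (0.882), chemokines (0.763), solute carriers (0.842) and potassium channels (0.781, and 0.881 in CON), all others in FC. Median ratios to input of the vascular and the pancreas and gut lists are not given here. List medians also crossed 1 in a 1 kb window for neuropeptide (0.965) and germ cell genes (0.959) in FC, and in a 5 kb window for interleukins (0.992, CON) and chemokines (0.888, FC). Relative to the GC step, the following list medians, as ratios, crossed 1 when nasal receptors were left out of the steps, an alternative chosen after seeing the data: microglia (0.960, FC), pancreas and gut (0.985, CON), eye (0.999 and 0.942), milk and saliva (0.994, CON), bitter taste receptors (0.847 and 0.773), C-type lectins (0.829, CON), prolactin family (0.940 and 0.778), solute carriers (0.961, FC) and potassium channels (0.987 and 0.929). The causes were not tested. No direction was reversed for the 12 highest and 6 lowest promoters or for the 10 named for FC against CON in any alternative run. These promoters were picked as extremes of the same ratios in the same reads, so the unchanged direction is no support. Of the 36 ratios to IgG-IP of the highest and lowest promoters, 23 moved with input as control and 5 in a 5 kb window. Of the 10 FC over CON ratios, 2 moved after subtracting the input difference and 2 in a 5 kb window. No paired analysis was possible because the labels number no replicates and each group has 1 library per antibody. For the same reason no replicate could be left out. Depth limits single promoters more than classes, since a mean 4 kb window held 19.2 to 63.9 reads.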
